A study of Mus musculus with 12 samples.

Results

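The 9 membrane-bound adenylyl cyclases, Adcy1 to Adcy9, were taken by gene symbol from the 24078 transcripts measured in the pancreatic islets of mice, and all 9 were listed. The islets came from male mice that were F2 hybrids of C57BL/6 and a second inbred strain, aged 5 to 6 months. WT mice carried no mutant allele, Wfs1HZ mice carried 1 copy of the Wfs1tm1Koks allele, and Wfs1KO mice carried only that allele. In Wfs1tm1Koks most of exon 8 of Wfs1 is replaced by a LacZ cassette in every cell of the body, and a shortened fusion product can still be made, so RNA from the earlier exons is not lost by design. Islets of 4 mice of each genotype were released with collagenase and picked by hand into high glucose medium, and 1 library was made per mouse from 10 ng of total RNA. The study kept islets overnight before its insulin secretion assay and does not say whether the sequenced islets were kept so. The values are RPKM, in which a read count is divided by transcript length and by library depth, so that levels of different genes can be compared within a library.

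Adenylyl cyclases convert ATP to cyclic AMP. In beta cells the incretin hormones act on receptors coupled to the stimulatory G protein Gs, which switches the cyclases on, and cyclic AMP then increases glucose-driven insulin release through protein kinase A and Epac2. The isoforms differ in what else they answer to. Adcy1, Adcy3 and Adcy8 are stimulated by calcium and calmodulin, Adcy5 and Adcy6 are inhibited by calcium and by Gi, Adcy2, Adcy4 and Adcy7 respond to G protein beta-gamma subunits or protein kinase C, and Adcy9 is only weakly sensitive to forskolin. The WFS1 protein, which resides in the endoplasmic reticulum, has been described in a complex with adenylyl cyclase 8.

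Beta and alpha cell markers were present in every library. The summed RPKM of the 9 beta cell markers detected ran from 12565 to 179874 and that of the 7 alpha cell markers from 50981 to 221075. Of the 10 beta cell markers listed, only Mafa averaged below 0.1 RPKM and was left out of the sum. Acinar RNA was also present in all 12 libraries, at a summed RPKM of 53049 to 119571 in WT, 8956 to 304434 in Wfs1HZ and 8360 to 275405 in Wfs1KO mice. The highest acinar sums in Wfs1HZ and Wfs1KO mice were above the highest beta or alpha cell sum of any library. Pairs of libraries never held identical values. Estimated from the steps between low RPKM values, 2179000 to 9447000 reads stood behind the values of a library. Wfs1HZ replicate 2 and Wfs1KO replicate 4 stood apart. They had the lowest acinar levels and the highest median RPKM over all transcripts, 3.37 and 1.73 against 0.75 to 1.5 elsewhere. Olfactory receptor genes, which islets should hardly use, averaged 2.63 and 0.574 RPKM there against 0.131 to 0.399 in the others. Wfs1 itself averaged 28.6 ± 3.83 RPKM in WT, 11.1 ± 5.59 in Wfs1HZ and 4.40 ± 1.83 in Wfs1KO islets (SD, n = 4 each), in the order of the genotypes, with Wfs1HZ and Wfs1KO mice overlapping.

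Adcy6 and Adcy9 made up most of the cyclase RNA of the islets in all 3 genotypes. Adcy6 held 46.6% ± 3.97 of the summed RPKM of the 9 genes and Adcy9 27.9% ± 7.80 (SD, n = 12), together 74.5% ± 5.64. Adcy4 followed with 8.43%, Adcy3 with 4.34% and Adcy7 with 3.11%. Adcy8 held 3.01%, Adcy1 2.83%, Adcy2 2.45% and Adcy5 1.31%. By RNA, the calcium-inhibited Adcy6 was therefore the most abundant member in these preparations, while its closest relative Adcy5 was the least abundant of the family. The cell source and the protein of Adcy6 were not measured. Among all transcripts the mean level of Adcy6 stood at percentile 84.8 and that of Adcy9 at 75.7, Adcy4 and Adcy3 stood at 56.8 and 49.9, and the other 5 lay between 32.4 and 46.1.

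**Figure D1:**
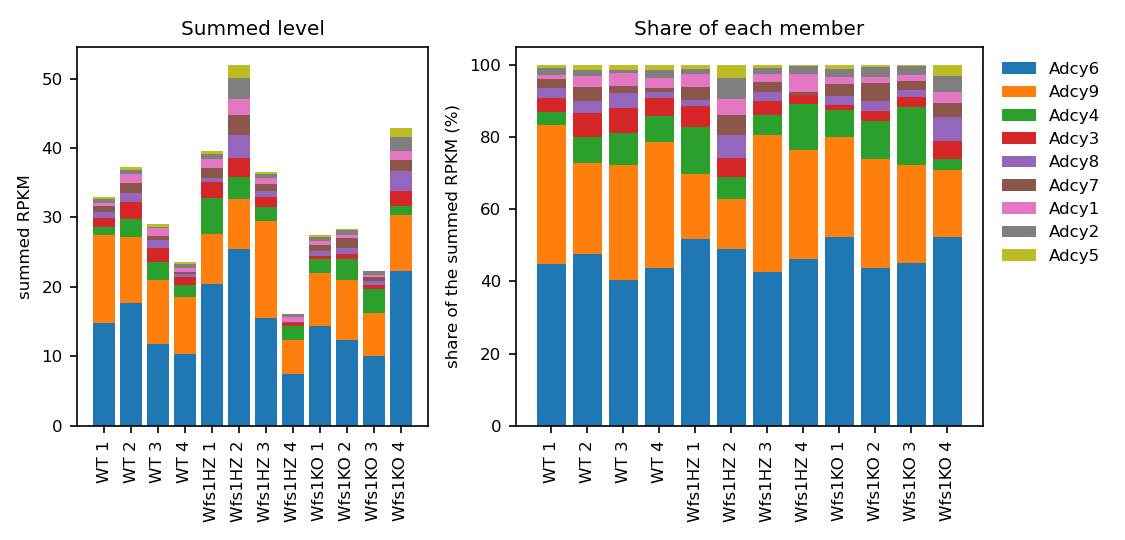
Left, summed RPKM of Adcy1 to Adcy9 in each of the 12 mice; right, the share of each member in that sum in percent, with the colours of the members in the legend. Adcy6 and Adcy9 fill 62.9% to 83.4% of every bar on the right, while the sum on the left runs from 16.1 to 52.0 RPKM.

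The order of the levels was tested within animals, as the difference in log2(RPKM + 0.1) between neighbours, with an exact two-sided sign-flip permutation test adjusted over 8 neighbour pairs. Adcy6 exceeded Adcy9 in 12 of 12 animals, by 0.79 ± 0.54 on the log2 scale (SD, exact permutation adjusted p = 0.00195). Adcy9 exceeded Adcy4 in 12 of 12, by 1.78 ± 0.84 (exact permutation adjusted p = 0.00195). Adcy2 exceeded Adcy5, the last in the order, in 11 of 12, by 0.78 ± 0.68 (exact permutation adjusted p = 0.00521). These 3 mean differences were larger than their SD over animals. Adcy4 exceeded Adcy3 in 10 of 12, by 0.85 ± 1.02 (exact permutation adjusted p = 0.0352), a mean difference smaller than its SD, and this step lost the call in 8 of the 12 fits that left out 1 animal (WT replicates 3 and 4, Wfs1HZ replicates 1, 3 and 4, or Wfs1KO replicates 1, 2 and 3), with adjusted exact permutation p of up to 0.0703. The neighbours from Adcy3 down to Adcy2 did not differ beyond their spread, with adjusted exact permutation p of 0.0523 for Adcy3 and Adcy8 (8 of 12 animals, and 0.0266 to 0.0406 without Wfs1HZ replicate 2, Wfs1KO replicate 1 or Wfs1KO replicate 4), 0.462 for Adcy8 and Adcy7, 0.673 for Adcy7 and Adcy1 and 0.427 for Adcy1 and Adcy2.

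The genotype means kept Adcy6, Adcy9 and Adcy4 in the same order at the top and Adcy5 last. In Wfs1KO islets Adcy3 ranked 6, behind Adcy8 and Adcy7, where it ranked 4 in the other two genotypes. The summed RPKM of the family was 30.7 ± 5.81 in WT, 36.0 ± 14.9 in Wfs1HZ and 30.3 ± 8.79 in Wfs1KO islets (SD, n = 4 each).

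No member passed the test in any genotype comparison. The test was limma on log2(RPKM + 0.1) over the 21701 transcripts that averaged 0.1 RPKM or more, with Benjamini-Hochberg adjustment. Between Wfs1KO and WT islets 0 of 9 members had an adjusted limma p under 0.05, against 0.0138% of all transcripts tested. The count at an unadjusted p under 0.05 was also 0 of 9, against 5.64%, and 0 of 9 had animals that did not overlap between the groups, against 2.74%. The same counts were 0 between Wfs1KO and Wfs1HZ, where the backgrounds were 0.0%, 2.45% and 1.43%, and 0 between Wfs1HZ and WT, where they were 0.0%, 2.35% and 1.66%. In Wfs1KO against WT 5 members were higher and 4 lower, with a median log2 fold change of 0.08 beside 0.07 over all transcripts. In Wfs1KO against Wfs1HZ 3 were higher and 6 lower, with a median of -0.14 beside 0.04, and in Wfs1HZ against WT 6 were higher and 3 lower, with a median of 0.23 beside 0.04. The 3 comparisons share animals, so these counts are not independent of each other. In whole islets, fewer cells of a type and less RNA per cell cannot be told apart.

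**Figure D2:**
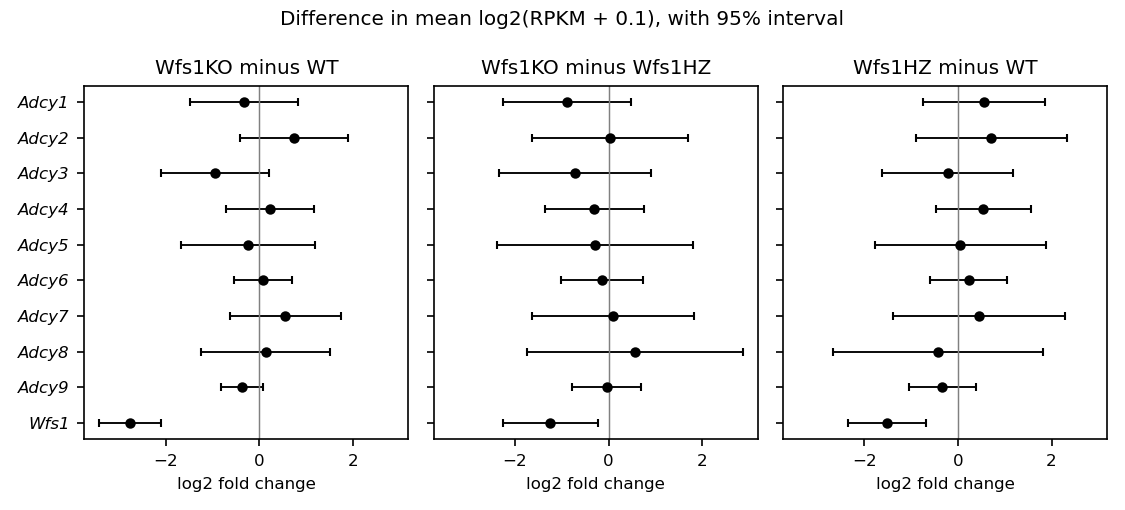
Difference between genotypes in mean log2(RPKM + 0.1) for the 9 cyclases and Wfs1, one panel per comparison, with points at the estimate and bars for the 95% interval of the limma fit (4 animals per genotype). All intervals of the cyclases cross 0, and they are narrowest for Adcy9 and Adcy6, and the Wfs1 intervals lie below 0 in all 3 panels.

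Of the calcium-stimulated isoforms, Adcy3 showed the largest difference between Wfs1KO and WT islets. Its gene lies on the plus strand of chromosome 12 (mm10, chr12:4133103-4213525). Adcy3 measured 1.32, 2.49, 2.02 and 1.15 RPKM in the WT mice and 0.42, 0.79, 0.60 and 2.11 in the Wfs1KO mice. Of the Wfs1KO mice 3 lay below every WT mouse, and the remaining mouse lay near the top of the WT range. The Wfs1HZ mice spanned both, at 2.34, 2.78, 1.46 and 0.38 RPKM. The log2 fold change in Wfs1KO against WT was -0.94 (SE 0.51), with an adjusted limma p of 0.879 and an exact permutation p of 0.143. The 95% interval, -2.10 to 0.22, covers a 4-fold fall as well as no change. Without Wfs1KO replicate 4 the value was -1.36, with an unadjusted limma p of 0.0121 and an adjusted p of 0.472. Expressed as a share of the family, Adcy3 was 5.62% ± 1.42 in WT, 4.41% ± 1.58 in Wfs1HZ and 2.98% ± 1.42 in Wfs1KO islets (SD, n = 4 each). Exons of Adcy3 overlap Cenpo on the opposite strand, and whether reads were counted by strand is not stated. Cenpo averaged 2.44 ± 0.784 RPKM in WT and 2.44 ± 0.333 in Wfs1KO islets (SD, n = 4 each).

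Adcy8, the calcium-stimulated isoform linked to WFS1, showed no difference that these animals could resolve. It lies at chr15:64697084-64922296 on the minus strand (mm10). Adcy8 measured 0.88, 1.28, 1.15 and 0.37 RPKM in WT mice, 0.60, 3.32, 0.91 and 0 in Wfs1HZ mice, and 0.64, 0.80, 0.47 and 2.94 in Wfs1KO mice. The high values of both mutant groups fell in the 2 libraries that stood apart. In Wfs1HZ replicate 4 the gene was listed at 0, where 3 reads over its longest transcript would have given 0.0865 RPKM at the estimated depth. The log2 fold change in Wfs1KO against WT was 0.13 (SE 0.61, 95% interval -1.25 to 1.52, limma adjusted p = 0.997). Adcy8 RNA at this depth was thus bounded only to within about 3-fold in either direction.

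Adcy1, the third calcium-stimulated isoform, is best known from neurons. It measured 0.39, 1.23, 1.06 and 0.67 RPKM in WT, 1.33, 2.25, 0.84 and 0.77 in Wfs1HZ and 0.56, 0.47, 0.36 and 1.25 in Wfs1KO mice. Its largest difference was between Wfs1KO and Wfs1HZ islets, where 3 Wfs1KO mice lay below every Wfs1HZ mouse. The log2 fold change there was -0.89 (SE 0.62), with an exact permutation p of 0.114 and an adjusted limma p of 1.

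**Figure D3:**
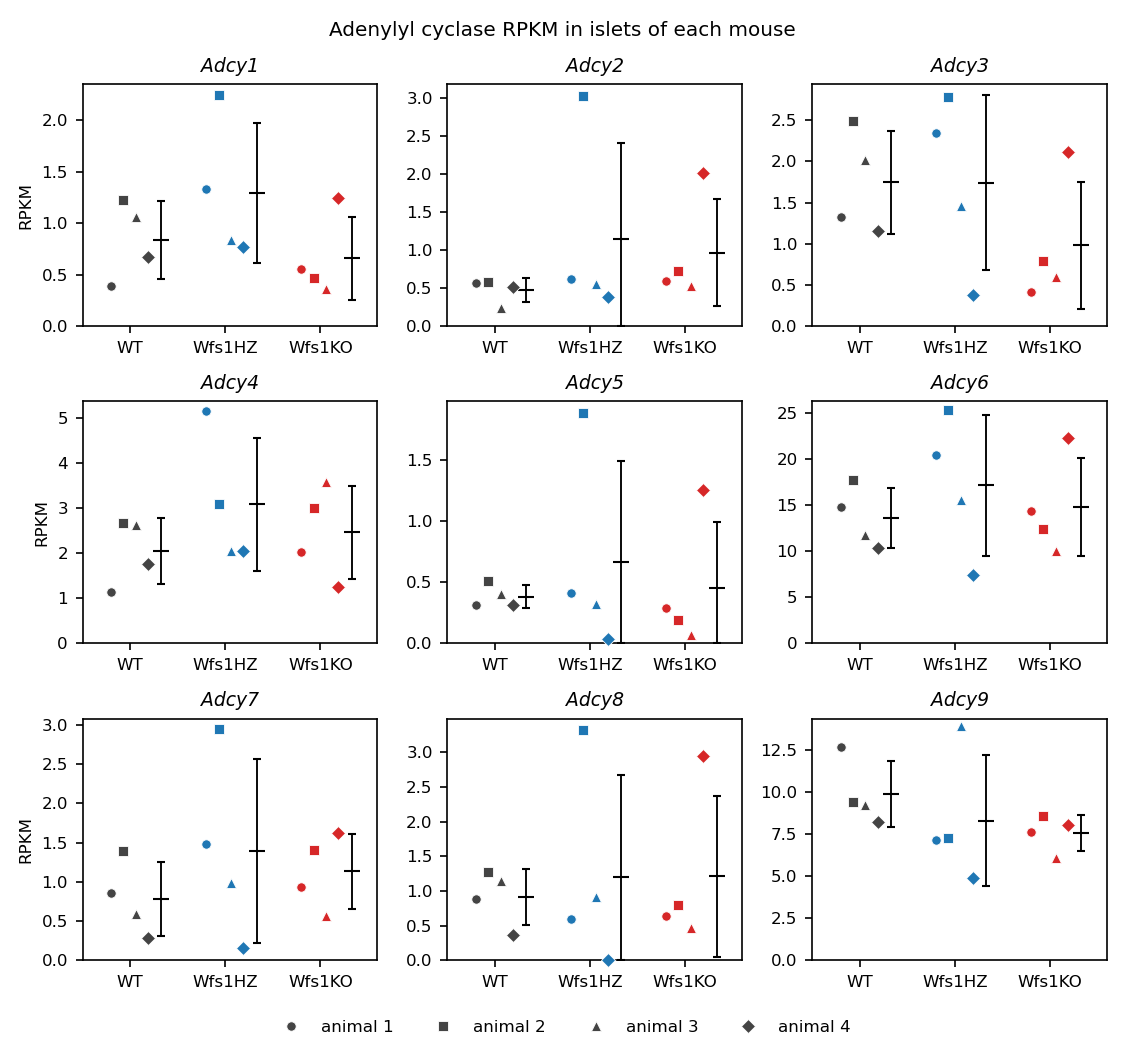
RPKM of each cyclase in the islets of each mouse, one panel per gene and one column per genotype, with the symbol shape giving the replicate number and the black bar the mean with its SD (cut at 0; n = 4). Wfs1HZ replicate 2 is the highest of its group for Adcy1, 2, 3, 5, 6, 7 and 8 and Wfs1KO replicate 4 the highest of its group for the same 7 genes, but neither is so for Adcy4 or Adcy9.

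Adcy6, the abundant calcium-inhibited isoform, showed no resolved difference between the genotypes. The gene is at chr15:98589973-98610076 on the minus strand (mm10). It measured 14.8, 17.7, 11.8 and 10.3 RPKM in WT, 20.5, 25.4, 15.6 and 7.43 in Wfs1HZ and 14.4, 12.4, 10.1 and 22.4 in Wfs1KO mice. The groups overlapped throughout. Its log2 fold change in Wfs1KO against WT was 0.08 (SE 0.27, limma adjusted p = 0.991), with a 95% interval of -0.54 to 0.70. With 206 to 945.6 estimated reads per library, Adcy6 was among the better measured members.

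Adcy5, the other calcium-inhibited isoform, is known for a role in coupling glucose to cyclic AMP in human islets. It measured 0.31, 0.51, 0.40 and 0.31 RPKM in WT, 0.41, 1.88, 0.32 and 0.04 in Wfs1HZ and 0.29, 0.19, 0.07 and 1.25 in Wfs1KO mice. All 4 WT mice lay within a narrow band. Of the Wfs1KO mice 3 lay below that band and 1 above it, and the log2 fold change was -0.25 (SE 0.63, limma adjusted p = 0.984). Only 1.4 to 31.6 estimated reads per library stood behind these values.

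Adcy9, the isoform with little response to forskolin, had the smallest spread relative to its mean in WT and in Wfs1KO mice, with coefficients of variation of 19.6% and 14.2%. The gene lies at chr16:4287529-4420498 on the minus strand (mm10). Adcy9 measured 12.7, 9.41, 9.25 and 8.22 RPKM in WT mice and 7.64, 8.58, 6.08 and 8.05 in Wfs1KO mice. The groups overlapped by 1 animal on each side: 3 Wfs1KO mice lay below every WT mouse, and 3 WT mice above every Wfs1KO mouse. The Wfs1HZ mice ran from 4.88 to 13.9 RPKM, with 7.14 and 7.30 in between. The log2 fold change in Wfs1KO against WT was -0.37 (SE 0.20), with an exact permutation p of 0.057, where 0.029 is the smallest that 4 against 4 animals allow. The adjusted limma p was 0.879 and the 95% interval -0.82 to 0.08. The ratio of Adcy6 to Adcy9 was 1.39 ± 0.33 in WT, 2.25 ± 1.11 in Wfs1HZ and 1.94 ± 0.585 in Wfs1KO islets (SD, n = 4 each), and it was above 1 in 12 of 12 animals.

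Among the isoforms that respond to beta-gamma subunits or protein kinase C, Adcy4 was the most abundant. It measured 1.14, 2.66, 2.62 and 1.75 RPKM in WT, 5.16, 3.08, 2.04 and 2.05 in Wfs1HZ and 2.02, 3.01, 3.57 and 1.25 in Wfs1KO mice. The groups overlapped, and the log2 fold change was 0.23 (SE 0.42) in Wfs1KO and 0.54 (SE 0.45) in Wfs1HZ against WT islets, with adjusted limma p of 0.969 and 1. Adcy2 measured 0.57, 0.58, 0.24 and 0.52 RPKM in WT, 0.62, 3.02, 0.55 and 0.38 in Wfs1HZ and 0.59, 0.73, 0.53 and 2.01 in Wfs1KO mice. Of the Wfs1KO mice 3 lay above every WT mouse, though 2 of them by 0.15 RPKM or less. The log2 fold change was 0.75 (SE 0.51), with an exact permutation p of 0.114 and an adjusted limma p of 0.915. Adcy7, the isoform typical of blood cells, measured 0.86, 1.39, 0.59 and 0.29 RPKM in WT, 1.48, 2.94, 0.98 and 0.16 in Wfs1HZ and 0.93, 1.41, 0.57 and 1.62 in Wfs1KO mice. Its log2 fold change in Wfs1KO against WT was 0.55 (SE 0.53, limma adjusted p = 0.934), with overlapping groups.

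Many pairs of members varied together across animals, but none that held Adcy4 or Adcy9. Of the 36 pairs of members, 15 had a Pearson r with an adjusted permutation p under 0.05 over the 12 animals, and none of those 15 pairs held Adcy4 or Adcy9. The share among pairs of other transcripts was not computed, so the count cannot be read as particular to this family. The pair with the highest rank correlation was Adcy3 and Adcy5, with Spearman rho = 0.96 (permutation p = 2e-05, adjusted 0.00072) and Pearson r = 0.80 (permutation p = 0.00117, adjusted 0.00702). Without the 2 animals farthest from the median of Adcy3 this r was 0.83. The lowest was Adcy4 and Adcy9, with rho = -0.45 (permutation p = 0.149, adjusted 0.244) and r = -0.39 (permutation p = 0.219, adjusted 0.328), and r = -0.13 without the 2 animals farthest from the median of Adcy4. These counts move with the scaling of the libraries. After median-of-ratios scaling 4 of the 36 pairs passed, and after quantile normalization 0 did. The r of Adcy3 and Adcy5 was then 0.70 (adjusted permutation p = 0.0899) and 0.63 (adjusted 0.256). That of Adcy4 and Adcy9 was -0.27 and 0.03. The pair with the highest r was Adcy5 and Adcy8 after the first scaling and Adcy7 and Adcy8 after the second. Some of the 15 pairs also depended on few animals. Without Wfs1HZ replicate 2 and Wfs1KO replicate 4, r fell from 0.77 to 0.09 for Adcy2 and Adcy5. For Adcy2 and Adcy6 it fell from 0.74 to 0.46 without the same animals. For Adcy3 and Adcy6 it went from 0.76 to 0.80 without Wfs1HZ replicate 4 and Wfs1KO replicate 1.

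RefSeq (GRCm38.p6) gave start-site windows, from 250 bases before to 50 after an annotated start, for 7 of the 9 members. Windows of 4 genes are printed below 5′ to 3′ along the gene. Adcy3 and Adcy5 were the most alike pair and Adcy4 and Adcy9 the least alike, by rank and without rescaling of the libraries. The starts of genes that varied together on that measure can thus be set beside those that did not. Capitals mark the GC box GGGCGG and the cyclic AMP response element core TGACG on either strand (CCGCCC and CGTCA when reversed). The Adcy3 window is chr12:4133147-4133446 (plus strand, the first of its 2 starts), that of Adcy5 chr16:35154614-35154913 (plus), that of Adcy4 chr14:55784023-55784322 (minus) and that of Adcy9 chr16:4420449-4420748 (minus).
Adcy3: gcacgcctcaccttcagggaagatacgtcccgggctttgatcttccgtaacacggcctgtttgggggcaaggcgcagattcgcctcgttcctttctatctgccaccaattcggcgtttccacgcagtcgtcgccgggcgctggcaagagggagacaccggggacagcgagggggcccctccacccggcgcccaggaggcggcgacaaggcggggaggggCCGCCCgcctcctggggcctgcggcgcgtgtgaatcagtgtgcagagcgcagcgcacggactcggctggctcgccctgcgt
Adcy5: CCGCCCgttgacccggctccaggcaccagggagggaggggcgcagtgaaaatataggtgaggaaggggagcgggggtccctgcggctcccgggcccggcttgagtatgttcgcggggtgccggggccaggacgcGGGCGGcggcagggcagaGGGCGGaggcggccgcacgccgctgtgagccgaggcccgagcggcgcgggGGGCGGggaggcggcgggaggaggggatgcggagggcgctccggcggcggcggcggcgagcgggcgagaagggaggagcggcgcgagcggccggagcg
Adcy4: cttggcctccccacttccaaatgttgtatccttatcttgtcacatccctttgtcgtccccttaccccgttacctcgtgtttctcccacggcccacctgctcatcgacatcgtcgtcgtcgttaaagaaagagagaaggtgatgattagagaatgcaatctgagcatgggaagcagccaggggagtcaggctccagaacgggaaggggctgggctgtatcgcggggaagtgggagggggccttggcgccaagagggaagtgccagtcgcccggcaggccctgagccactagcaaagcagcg
Adcy9: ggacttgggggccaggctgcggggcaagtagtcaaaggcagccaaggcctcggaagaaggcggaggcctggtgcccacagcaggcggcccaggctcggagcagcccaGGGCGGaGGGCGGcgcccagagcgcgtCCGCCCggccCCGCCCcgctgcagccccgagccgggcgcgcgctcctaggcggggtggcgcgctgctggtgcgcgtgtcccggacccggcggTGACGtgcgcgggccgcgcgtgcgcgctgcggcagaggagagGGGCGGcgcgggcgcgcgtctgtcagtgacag
The windows of Adcy9 and Adcy5, the second most abundant member and the least abundant, were alike in composition, with a GC content of 78.3% and 79.0%, 42 and 44 CpG dinucleotides, and 5 and 4 GC boxes. That of Adcy3 had a GC content of 68.7%, 33 CpG and 1 GC box. That of Adcy4 had 58.0%, 16 CpG and no GC box. Of these 4, only the Adcy9 window held TGACG, once. Over all 32851 windows the median GC content was 52.7%, and 35.7% held a GC box and 20.8% held TGACG.

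Most members were correlated with cell type marker levels across animals. Over 81 relations between the 9 members and 9 marker lists, 31 had a Pearson r with an adjusted permutation p under 0.05 and 30 a Spearman rho. The share of all transcripts that would pass with these lists was not computed, so the counts cannot be read as particular to the cyclases. The relations were shared by most members: 5 passed by r with the alpha cell markers (Adcy1, Adcy3, Adcy5, Adcy6 and Adcy8), 5 with the delta cell markers (Adcy3, Adcy5, Adcy6, Adcy7 and Adcy8), 3 with the endothelial markers (Adcy6, Adcy7 and Adcy8), and 6 each with the stromal and with the Schwann cell and neuron markers (Adcy1, Adcy2, Adcy5, Adcy6, Adcy7 and Adcy8). Those r were all positive, from 0.66 to 0.85. No member passed by r or rho with the beta cell or the immune cell markers. With the beta cell markers r was negative for every member but Adcy9. It ran from -0.61 for Adcy2 (permutation p = 0.0352, adjusted 0.0802) to -0.27 for Adcy3, and was 0.48 for Adcy9 (permutation p = 0.115, adjusted 0.212). Some of the relations that passed depended on few animals. Without Wfs1HZ replicate 2 and Wfs1KO replicate 4, the r of Adcy2 with the Schwann cell and neuron markers fell from 0.68 to 0.06. Within WT mice it was -0.80, and that of Adcy2 with the stromal markers was -0.56. For Adcy8 and the endothelial markers r fell from 0.69 to 0.33 without WT replicate 4 and Wfs1HZ replicate 4. For Adcy8 and the stromal markers it was 0.76 without Wfs1HZ replicates 2 and 4. Whether cell mixture or library quality lay behind these relations was not tested. Among the alpha cell relations, that of Adcy3 had r = 0.82 (permutation p = 0.00073, adjusted 0.0121) and rho = 0.93 (permutation p = 2e-05, adjusted 0.00162). The r was 0.84 without the 2 animals farthest from the median marker level, 0.82 after removing the genotype means, and 0.84, 0.98 and 0.87 within WT, Wfs1HZ and Wfs1KO mice. The relation of Adcy5 was as close by rank, with rho = 0.93 (permutation p = 5e-05, adjusted 0.00202), r = 0.80 (permutation p = 0.00234, adjusted 0.0146), and r = 0.89 without the same 2 animals. Of the 3 Wfs1KO mice that were low in Adcy3, all were also among the 5 mice with the lowest alpha cell marker levels. The part of this in the Adcy3 difference was not tested.

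Adcy5 fell as the acinar markers rose, with r = -0.91 (permutation p = 0.00035, adjusted 0.0121) and rho = -0.71 (permutation p = 0.012, adjusted 0.0374), and r = -0.77 without Wfs1HZ replicate 2 and Wfs1KO replicate 4. Within WT mice r was -0.31, and within Wfs1HZ and Wfs1KO mice -0.97 in each. Adcy2, Adcy6, Adcy7 and Adcy8 also fell with the acinar markers, with r from -0.91 to -0.74 over the 5 members. Without Wfs1HZ replicate 2 and Wfs1KO replicate 4 the r of these 4 was -0.47, -0.70, -0.65 and -0.64. Adcy4 passed with the ductal markers and no other list, with r = 0.74 (permutation p = 0.00596, adjusted 0.021) and rho = 0.66 (permutation p = 0.0246, adjusted 0.0586). Without Wfs1HZ replicate 1 and Wfs1KO replicate 4 its r was 0.49. Adcy9 passed with none of the 9 lists.

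**Figure D4:**
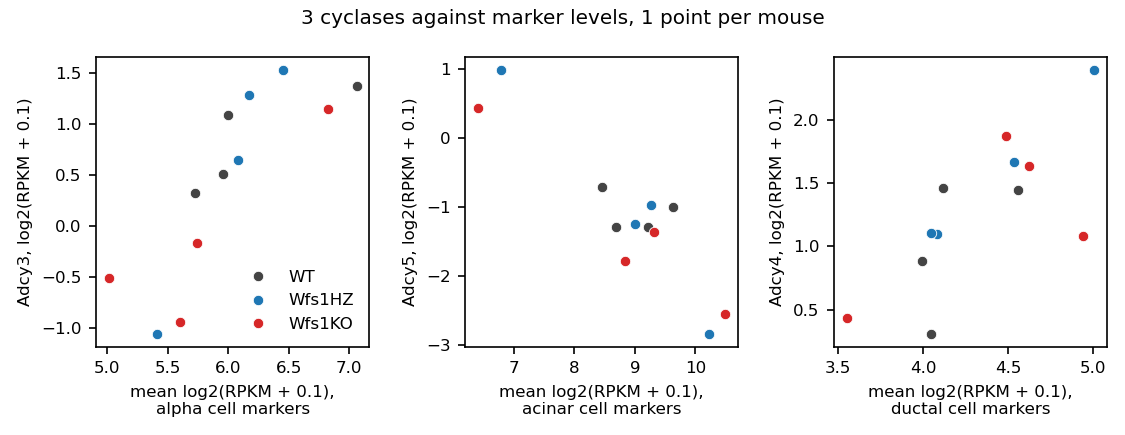
Adcy3, Adcy5 and Adcy4, as log2(RPKM + 0.1), against the mean log2(RPKM + 0.1) of the alpha, acinar and ductal cell markers, 1 point per mouse and 1 colour per genotype. Adcy3 climbs with the alpha markers (r = 0.82), Adcy5 is highest in the 2 mice with the lowest acinar markers (r = -0.91), and Adcy4 climbs with the ductal markers (r = 0.74).

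The relations also depended on how the libraries were scaled. After median-of-ratios scaling 3 of the 31 still passed, Adcy5 and Adcy8 with the acinar and Adcy4 with the ductal markers, and after quantile normalization 0 did. The r of Adcy3 with the alpha markers was then 0.69 (adjusted p = 0.0726) and 0.70 (adjusted p = 0.0865). The olfactory receptor level, which marks no islet cell, was correlated with 6 of the 9 members by r at an adjusted permutation p under 0.05. These were Adcy1, Adcy2, Adcy5, Adcy6, Adcy7 and Adcy8, with r from 0.63 to 0.79. The share of all transcripts that would pass was not computed. Without WT replicate 4 and Wfs1HZ replicate 2 the r of Adcy1, Adcy2, Adcy5, Adcy6 and Adcy7 fell to 0.28, 0.49, 0.68, 0.47 and 0.55. By rank only Adcy8 passed, with rho = 0.89 (permutation p = 0.00027, adjusted over the 9 members 0.00243) and r = 0.75 (permutation p = 0.0168, adjusted 0.0303), and r = 0.81 without WT replicate 4 and Wfs1HZ replicate 2. For Adcy9 that rho was 0.19 (permutation p = 0.556, adjusted 0.626) and for Adcy4 0.08 (permutation p = 0.801, adjusted 0.801).

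For the 6 members that averaged at least 1 RPKM, the transcripts with the most similar pattern over the 12 animals were sought among 13356 by Spearman rho, as a description with no test since they are the highest of many. Adcy6 was nearest to Actr1a (rho = 0.99), BC021891 and Cnot8 (0.99 each). Adcy9 was nearest to Acadsb (0.95), Ppip5k1 (0.93) and Dcaf7 (0.90), and Adcy4 to Lima1 (0.89), Ly9 (0.87) and Trim16 (0.86). Adcy3 was nearest to Zfp462, Pitpnc1 and Efna5 and Adcy7 to Wipf1, Slc27a2 and Ammecr1l (0.97 each). Adcy8 was nearest to Kl (0.99), Zfp426 (0.98) and Zfp26 (0.97). The neighbours of Adcy4 were the least close, and no transcript appeared beside more than one member.

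The genes around the cyclases, from receptor to CREB target, were followed in 10 lists with 143 genes tested. None had an adjusted limma p under 0.05 in any comparison. In Wfs1KO against WT 4 were higher and 5 lower at an unadjusted p under 0.05, 6.29% of the genes beside 5.64% of all transcripts, and 6 had animals that did not overlap, 4.20% beside 2.74%. In Wfs1KO against Wfs1HZ 1 was higher and 1 lower, 1.40% beside 2.45%, and in Wfs1HZ against WT 2 were higher and 2 lower, 2.80% beside 2.35%. The lowest adjusted limma p in Wfs1KO against WT was 0.835.

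Upstream of the cyclases, the most abundant receptor was Glp1r, the GLP-1 receptor, at 63.4 ± 22.9 RPKM in WT and 41.3 ± 13.8 in Wfs1KO islets (SD, n = 4 each; log2 fold change -0.59, limma adjusted p = 0.879). Gipr, the receptor of the incretin GIP, measured 1.34 to 4.38 RPKM in WT and 0.41 to 1.27 in Wfs1KO mice. The groups did not overlap, and the log2 fold change was -1.33 (SE 0.51, limma adjusted p = 0.840). Adora2b, an adenosine receptor coupled to Gs, measured 1.48 to 1.85 RPKM in WT and 1.96 to 3.32 in Wfs1KO mice, also without overlap. The other 14 receptors that couple to Gs overlapped between these genotypes. Gnas, which encodes the Gs alpha subunit, averaged 348 ± 47.4 RPKM in WT and 303 ± 73.3 in Wfs1KO islets (SD, n = 4 each; limma adjusted p = 0.938). Of the 10 G protein alpha and Ric8 genes 9 were lower in Wfs1KO than in WT islets, with a median log2 fold change of -0.26 beside 0.07 over all transcripts, of which 57.8% were higher, and 0 passed the unadjusted test. In Wfs1HZ against WT 8 of the 10 were lower (median -0.28), and in Wfs1KO against Wfs1HZ 6 were higher and 4 lower (median 0.06). Gng11, a G protein gamma subunit, had a log2 fold change of 1.35 (SE 0.59, limma adjusted p = 0.879). Rgs2, which restrains G protein signalling and can bind cyclases, measured 20.7 ± 9.28 RPKM in WT and 11.8 ± 4.03 in Wfs1KO islets (SD, n = 4 each; log2 fold change -0.76, limma adjusted p = 0.877).

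Downstream, the phosphodiesterases, which break cyclic AMP down, had 1 gene higher and 1 lower among 16 at an unadjusted p under 0.05. Pde4a measured 1.26 to 1.70 RPKM in WT and 2.04 to 3.58 in Wfs1KO mice, without overlap (log2 fold change 0.81, SE 0.29, limma adjusted p = 0.835). Pde10a was at 5.62 ± 0.709 RPKM in WT and 3.79 ± 1.00 in Wfs1KO islets (SD, n = 4 each; log2 fold change -0.58, limma adjusted p = 0.876). Prkar1a, a regulatory subunit of protein kinase A and the most abundant of the 20 effectors, measured 131 to 226 RPKM in WT and 104 to 130 in Wfs1KO mice, without overlap. Its log2 fold change was -0.47 (SE 0.21, limma adjusted p = 0.879).

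The CREB target genes did not move one way. Of 19 tested, 11 lay above WT and 8 below it in Wfs1KO islets, with a median log2 fold change of 0.07, the same as over all transcripts. Npas4, an activity-induced transcription factor, measured 1.83 to 9.25 RPKM in WT, 1.52 to 13.4 in Wfs1HZ and 0.49 to 1.23 in Wfs1KO mice. The Wfs1KO mice lay below all mice of both other genotypes, with log2 fold changes of -2.0 (SE 0.51, limma adjusted p = 0.835) against WT and -2.10 (SE 0.71, limma adjusted p = 1) against Wfs1HZ. The study's own edgeR test called Npas4 lower in Wfs1KO than in Wfs1HZ islets. Fos and Nr4a1, other immediate early genes, lay on the opposite side, at log2 fold changes of 0.89 (SE 0.29) and 0.51 (SE 0.22) in Wfs1KO against WT, with adjusted limma p of 0.835 and 0.879.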

How the data were processed

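Islet RNA of 12 mice, 4 of each genotype, was sequenced by the authors on a SOLiD 5500xl instrument from amplified cDNA. They deposited 1 table of RPKM values for 24078 transcripts, mapped to mm10 per the labels; the counting tool, annotation and use of strand are not given in the sources used here. Genotypes were taken from the labels. The deposited RPKM values are not counts, and 69.0% to 85.0% of the low values of short RNAs lay within 0.1 of a whole read, so no count test was run and depth was only estimated (2179000 to 9447000 reads per library). The study reports more reads per sample than this, above the range that was searched. How many of those reads entered the RPKM is not given, so the depths and the reads per gene built on them are rough.

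RPKM were transformed to log2(RPKM + 0.1), and the 21701 transcripts averaging 0.1 RPKM or more across all 12 libraries were compared between each pair of genotypes with limma 3.58.1 in R 4.3.3, letting the prior variance follow the mean level and adjusting by Benjamini-Hochberg (threshold 0.05). Fold changes are on that scale and understate those of low genes. Single genes were also tested with the exact two-sided permutation test over animals, and relations across animals with 100000 permutations, in Python 3.11.15 with numpy 2.4.6 and scipy 1.17.1. The limma step was tested on simulated data with known changes. Members, gene lists and marker lists were chosen with earlier results of these data known. Pathway genes were named where their unadjusted p was under 0.05 or their animals did not overlap in Wfs1KO against WT or Wfs1HZ, at most 4 per list, beside the most abundant gene of a list. Alternatives were other pseudocounts, filters, scalings, variance models, sample weights, a joint fit, the replicate number as a block, and leaving out animals. Animals with the same replicate number did not deviate together in every comparison (correlations -0.174 to 0.228), so they were not treated as pairs. In Wfs1HZ against WT 3 of 4 were most alike to the animal of their own number (mean correlation 0.114). That number was 1 in Wfs1KO against WT and 0 in Wfs1KO against Wfs1HZ.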

Additional observations from a re-analysis of the deposited data

Results flagged for a closer look

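In 3 of the 27 groups of 4 animals, 1 animal lay farther from the rest than Dixon's 95% limit for the gap over the range. The limit lets through about 1 group in 20 by chance where values are normally distributed. The gaps were taken on RPKM and not on the log2 scale, so that rate need not hold here. Adcy2 was at 3.02 RPKM in Wfs1HZ replicate 2, where the other Wfs1HZ mice were at 0.38 to 0.62, a gap of 0.909 of the range. Adcy2 was at 2.01 RPKM in Wfs1KO replicate 4, where the others were at 0.53 to 0.73, a gap of 0.865. Adcy8 was at 2.94 RPKM in Wfs1KO replicate 4, where the others were at 0.47 to 0.80, a gap of 0.866. Both mice are the ones with the lowest acinar marker levels and the highest olfactory receptor levels; the part of either in these values was not tested.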

How the results depend on the processing

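No member had an adjusted limma p under 0.05 in any of the 558 combinations of member, comparison and setting, the lowest being 0.453 for Adcy3. Of the 27 member fold changes 11 kept their sign in every setting, among them Adcy3 (-1.36 to -0.51) and Adcy9 (-0.45 to -0.25) in Wfs1KO against WT. Members with an unadjusted p under 0.05 in Wfs1KO against WT numbered 1 after median-of-ratios scaling (Adcy9), 2 after quantile normalization and 1 with sample weights (Adcy3), and in Wfs1KO against Wfs1HZ 1 with sample weights; leaving out animals gave 0 to 1 in each of the 3 comparisons. The 3 transcripts called in Wfs1KO against WT became 0 with a pseudocount of 1, 1 in the joint fit and 0 to 1 with animals left out. Sample weights gave 5 calls in Wfs1KO against Wfs1HZ, and in Wfs1HZ against WT 1 was called without the filter and 2 without the variance trend. A replicate block gave 0 called transcripts in Wfs1KO against WT, and the replicate number was not taken as a pairing elsewhere. In Wfs1KO against WT the sign turned for Adcy5 with a pseudocount of 1 (0.0067) and for Adcy6 (-0.025) and Adcy8 (-0.16) with sample weights. In Wfs1KO against Wfs1HZ it turned for Adcy2 (-0.034) and Adcy7 (-0.058) with a pseudocount of 1 and for Adcy2 after median-of-ratios scaling (-0.025). In Wfs1HZ against WT it turned for Adcy8 with a pseudocount of 1 (0.016), for Adcy9 with sample weights (0.068), and for Adcy5 with a pseudocount of 0.01 (-0.18), median-of-ratios scaling (-0.00063), quantile normalization (-0.21) and sample weights (-0.12). With 1 to 3 animals left out, ranges crossed 0 in Wfs1KO against WT for Adcy4 (-0.0078 to 0.51), Adcy5 (-0.83 to 0.17), Adcy6 (-0.13 to 0.25) and Adcy8 (-0.38 to 0.42). In Wfs1KO against Wfs1HZ they did for Adcy2 (-0.36 to 0.62), Adcy5 (-0.90 to 0.37), Adcy6 (-0.55 to 0.088), Adcy7 (-0.58 to 0.60), Adcy8 (-0.37 to 1.33) and Adcy9 (-0.43 to 0.24). In Wfs1HZ against WT they did for Adcy3 (-0.53 to 0.33), Adcy5 (-0.62 to 0.66), Adcy6 (-0.0041 to 0.58), Adcy7 (-0.046 to 1.14), Adcy8 (-1.19 to 0.51) and Adcy9 (-0.62 to 0.029). The within-animal difference of Adcy7 and Adcy1 ran from -0.0081 to 0.28. After quantile normalization the r of Adcy1 with the stromal markers turned to -0.16, and with the Schwann cell and neuron markers it turned to -0.24 for Adcy2, -0.10 for Adcy5, -0.47 for Adcy6, -0.20 for Adcy7 and -0.39 for Adcy8. The cause of these changes was not tested. Leaving out Wfs1HZ replicate 2 with Wfs1KO replicate 4, and Wfs1HZ replicate 4 too, was added after seeing the data. With 4 animals a genotype and under 100 estimated reads for most values of the scarce members, only large differences could be detected.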
